A study of Mus musculus with 11 samples.

Results

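Loss of Phf6 in LSK cells was examined by setting the 3 Phf6 knockout libraries (KO) against the 4 wild-type libraries (WT) of the series. LSK cells are the lineage-negative, cKit-positive, Sca-1-positive cells of the bone marrow, a sort that captures haematopoietic stem cells together with multipotent progenitors. Per the labels, each library came from the total RNA of 1 C57BL/6 mouse, read in pairs on an Illumina NextSeq 500. The labels call the KO mice Phf6 KO and the control mice wild type. They name no promoter, Cre driver or deleted exon, and the mice's age, sex and batch are likewise unlabelled. The 4 libraries of Phf6 R274X transgenic mice (Tg) entered the fit only to estimate the spread between libraries. Genes were taken when they reached at least 1 CPM (counts relative to library size) in 3 or more of the 7 libraries, which left 13973 genes of the 55291 symbols in the deposited count table. Akap5 lay just inside this limit, with 1.0005 CPM in its third-highest library, and Gm12827 just outside, with 0.9997.

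PHF6 is a nuclear protein with a pair of plant homeodomain-like zinc fingers that binds chromatin and has been reported with the NuRD remodelling complex and at ribosomal DNA. Its gene lies on the X chromosome, and loss-of-function mutations occur in human T-cell and myeloid leukaemias. In the LSK fraction, stem cells at the top of the hierarchy give rise to progenitors that begin to express myeloid or lymphoid genes before they lose Sca-1. A shift in the level of a gene in such a fraction can therefore come from fewer cells of a type or from less RNA per cell, which cannot be told apart in bulk libraries.

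The 7 libraries held 20990446 to 45632018 counts, so that a count of 0 allows up to 0.0657 to 0.143 CPM (3 counts, counting error only). The median Spearman correlation of a pair of WT libraries was 0.980, of a KO pair 0.986 and of a WT and a KO library 0.980. The gate was visible in both groups: Kit, the stem cell factor receptor that the sort used, lay between 580.4 and 804.5 CPM, Cd34 between 590.1 and 933.3 and Ly6a, which encodes Sca-1, between 20.4 and 40.4. Of 8 genes for lineage antigens, 4 (Cd3e, Cd8a, Ms4a1 and Ly6g) did not reach the CPM limit. Immunoglobulin genes took 0.0760% to 1.03% of counts in WT and 0.287% to 1.24% in KO. The libraries did not hold to 1 sex: Xist, transcribed from the inactive X, was present in all 7 (50.02 to 53.8 CPM in WT, 32.7 to 40.3 in KO), while Ddx3y, on the Y chromosome, lay at 40.8, 45.7, 0.0321 and 8.34 CPM in WT and at 37.6, 1.68 and 0 in KO. WT replicates 1, 2 and 4 and KO replicate 1 held Xist together with 4 Y-linked genes (Ddx3y, Uty, Kdm5d and Eif2s3y), each over 1 CPM, while KO replicate 2 passed that level for Ddx3y only. Xist and Y-linked reads in 1 library are not what 1 mouse of either sex gives as a rule, so whether each library holds 1 mouse is not settled. The mixture was examined by a fit with the Y-linked level as a covariate and by one without those 4 libraries, which sets KO replicates 2 and 3 against WT replicate 3 alone and takes its spread from the KO and Tg libraries. Both are given where they end a call. The second is also given for many, though not all, of the lists and genes whose direction turned or whose value moved.

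The deleted gene itself, Phf6, lies on the plus strand of the X chromosome between 52912266 and 52956943 (GRCm38). The WT libraries held 142.4, 119.3, 114.3 and 110.1 CPM and the KO libraries 23.8, 18.9 and 15.2. All 3 KO libraries lay far below the lowest WT library, and none reached 0. The mean fell from 121.5 ± 14.4 CPM (SD, n = 4) to 19.3 ± 4.33 (SD, n = 3), a log2 fold change of -2.65 (SE 0.20, edgeR adjusted p = 0.000532). Counts per gene do not show which exons the remaining reads cover. The log2 fold change stayed between -2.83 and -2.51 in every alternative that tested Phf6, and was -2.74 (adjusted p = 0.033) against WT replicate 3 alone.

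Besides Phf6, few genes passed. Over all 13973 genes, edgeR's quasi-likelihood test called 4 at an adjusted p under 0.05 (0.0286%), 1 higher (0.00716%) and 3 lower (0.0215%). DESeq2, run as an alternative, called 96 (0.688%), 48 in each direction (0.344% each). At an unadjusted p under 0.05, edgeR found 492 genes higher (3.52%) and 520 lower (3.72%). The groups did not overlap for 558 genes that lay higher in KO (3.99%) and 519 that lay lower (3.71%), together 7.71%, and 48.6% of all genes lay above WT. The median log2 fold change over all genes was -0.0064. These shares are the background against which each gene group below is read.

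**Figure D1:**
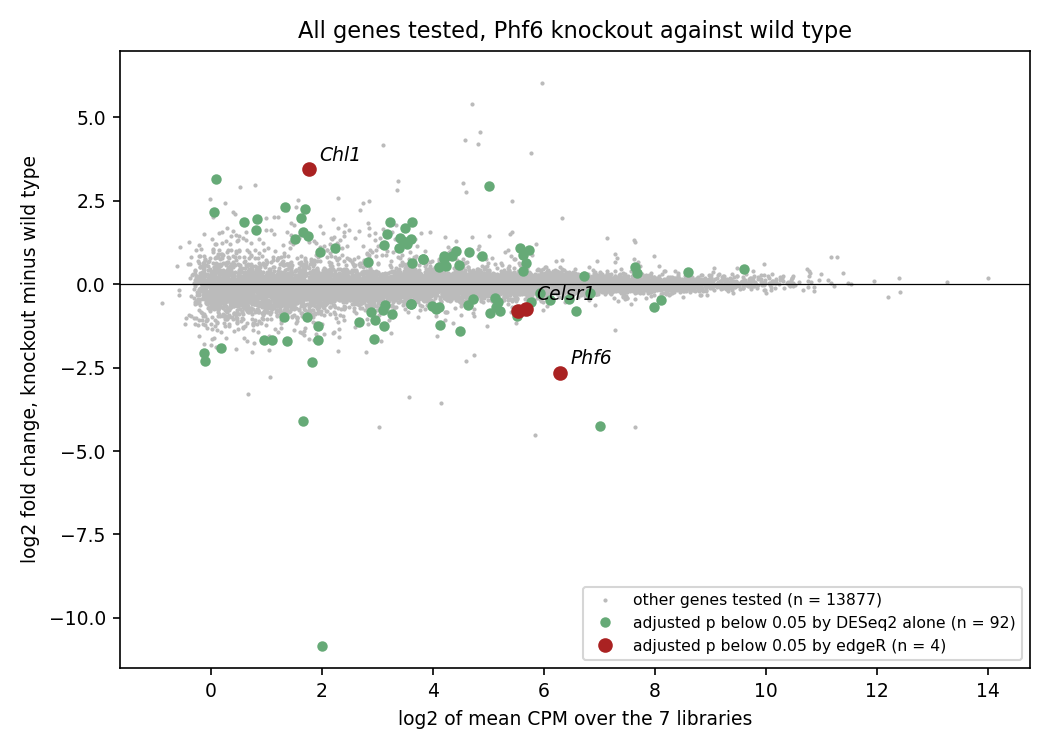
Each point is 1 of 13973 genes, with the log2 of its mean CPM over the 7 libraries on the x axis and the fitted log2 fold change of KO over WT on the y axis. Red points passed edgeR (4 genes, 3 of them named), green points passed DESeq2 alone (92 genes), and the median over all genes is -0.0064.

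Chl1, a cell adhesion molecule of the L1 family best known from neurons, was nearly silent in WT and rose in KO. Its level (chromosome 6, 103510586 to 103750211, plus strand) was 0.893, 0.626, 0.439 and 0.624 CPM in WT and 3.55, 10.6 and 7.08 in KO. Every KO library lay above every WT library, and the KO libraries differed 3-fold among themselves. Chl1 rose with a log2 fold change of 3.45 (SE 0.39, edgeR adjusted p = 0.013), from 0.646 ± 0.187 (n = 4) to 7.09 ± 3.55 CPM (n = 3). The call was lost without any 1 of WT replicates 2, 3 and 4 and KO replicates 2 and 3 (adjusted p 0.0599 to 0.0917) and with the Y-linked level as a covariate (adjusted p = 0.0553). Limma-voom, a surrogate variable, a fit of the 7 libraries alone and the replicate number as a block (in either fit) also ended it (adjusted p 0.066 to 0.318), as did the fit against WT replicate 3 alone (4.33, adjusted p = 0.113).

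Celsr1, an atypical cadherin with a membrane-spanning receptor domain that works in planar cell polarity, fell. Its level (chromosome 15, 85898929 to 86033777, minus strand) was 57.6, 55.8, 61.6 and 69.7 CPM in WT and 38.8, 37.2 and 34.7 in KO. The groups were well apart and each was tight. Celsr1 fell with a log2 fold change of -0.73 (SE 0.088, edgeR adjusted p = 0.014), from 61.2 ± 6.19 to 36.9 ± 2.07 CPM. The call was lost without WT replicate 3, KO replicate 2 or KO replicate 3 (adjusted p 0.0653 to 0.169) and with the Y-linked level as a covariate (adjusted p = 0.0553). It was also lost in the fit of the 7 libraries alone, with the replicate block and with a surrogate variable (adjusted p 0.17 to 0.337), and against WT replicate 3 alone (-0.77, adjusted p = 0.192).

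**Figure D2:**
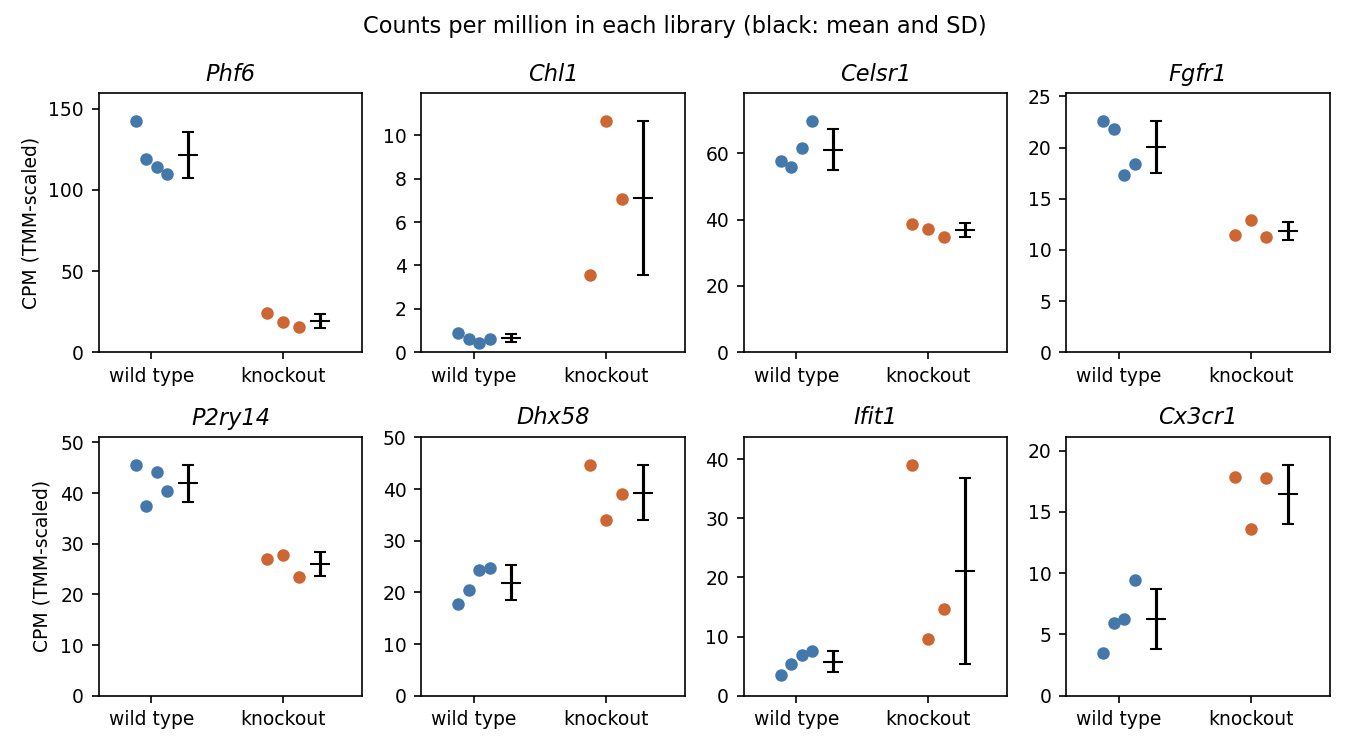
Each panel gives the CPM of 1 gene in the 4 WT libraries (blue) and 3 KO libraries (orange), with the mean and SD in black and every axis starting at 0. The groups do not overlap in any of the 8 panels, while Chl1 and Ifit1 differ widely among the KO libraries.

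The genes next in order did not pass edgeR, and their values describe the libraries. Those named here average at least 5 CPM, do not overlap between the groups and have the lowest unadjusted p in each direction. DESeq2 gave each an adjusted p under 0.05. Highest in this order above WT was Dhx58, the gene of LGP2, a sensor of viral RNA related to RIG-I. It lay at 17.8, 20.5, 24.4 and 24.8 CPM in WT and at 44.7, 34.1 and 39.0 in KO, a log2 fold change of 0.85 (SE 0.13, edgeR adjusted p = 0.104). All KO libraries exceeded all WT libraries, and the difference was larger than the spread within either group. Cds1, an enzyme of phospholipid synthesis, followed with 0.75 (SE 0.15), then Sertad3, a SERTA-domain transcription cofactor, with 0.65 (SE 0.13) and Mtln, a small mitochondrial protein, with 0.67 (SE 0.14). The mitochondrial aldehyde dehydrogenase Aldh1b1 (0.54), the palmitoyltransferase Zdhhc8 (0.41), Emid1 (0.58), the histone gene H4f16 (0.52) and the membrane progestin receptor family gene Paqr5 (1.52) were of the same kind. So were Ap1s2, a clathrin adaptor subunit (0.75), and Eef1a1-ps1 (1.67), a pseudogene whose reads the counting could share with Eef1a1.

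Cd44, the hyaluronan receptor and a marker that rises as progenitors leave the stem cell state, lay at 345, 320, 339 and 370 CPM in WT and at 417, 478 and 429 in KO (log2 fold change 0.36, SE 0.082, edgeR adjusted p = 0.301). The change was small in fold but exceeded the spread of both groups. Cx3cr1, the fractalkine receptor of monocytes, lay at 3.51, 5.95, 6.24 and 9.46 CPM in WT and at 17.9, 13.6 and 17.8 in KO (1.39, SE 0.30). WT replicate 4 was the highest of its group, as for other myeloid genes below. The other genes of this set, Ifit1 and Xaf1, belong to the interferon response.

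Below WT, P2ry14, the receptor for UDP-glucose on primitive haematopoietic cells, had 45.6, 37.4, 44.2 and 40.3 CPM in WT and 27.1, 27.7 and 23.4 in KO (log2 fold change -0.69, SE 0.11, edgeR adjusted p = 0.104). Ttc21b, a protein of intraflagellar transport in cilia, lay 0.43 lower on the log2 scale (-0.43, SE 0.074) with an SD of only 0.33 CPM around 22.1 in KO. Fgfr1, a fibroblast growth factor receptor, had 22.6, 21.8, 17.3 and 18.4 CPM in WT and 11.4, 12.9 and 11.3 in KO (-0.75, SE 0.15, adjusted p = 0.269). For these 3 genes, the KO libraries lay closer together than the WT libraries. Vdr, the vitamin D receptor, had a log2 fold change of -0.69 (SE 0.15) and Cdk18, a cyclin-dependent kinase, one of -0.58 (SE 0.12). Fut8, which adds the core fucose to N-glycans, lay at 312 ± 36.9 CPM in WT and 225 ± 11.3 in KO (-0.47, SE 0.11), and Galnt6, which starts O-glycans, at 98.6 ± 11.1 and 72.2 ± 4.01 (-0.45, SE 0.098). The serine dehydratase-like gene Sdsl (-0.65), the keratin Krt80 (-1.13), the membrane glycoprotein Mpzl1 (-1.27), Phldb2 (-1.64) and the zinc finger gene Zfp532 (-1.42) completed the set. Zfp532 was spread over 15.99 to 45.8 CPM within WT but lay at 11.1 to 11.8 in all 3 KO libraries.

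Large fitted changes were mostly of other kinds. Of 53 genes with a fitted change over 4-fold, 34 higher and 19 lower, 28 were immunoglobulin segments, 6 were other pseudogenes and 12 were protein-coding, of which Phf6 and Chl1 were called. Among the immunoglobulin segments, Igkv4-72 (chosen after its values were seen) had 746 counts over the WT libraries and 0 in KO, at least 239-fold lower (against 3 counts over the KO group). It held 1.79 to 13.1 CPM in the WT libraries, through which alone it passed the CPM limit. Near-identical segments can share its reads. Igkv4-72 did not pass edgeR (adjusted p = 0.269).

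Most interferon-response genes lay above WT. Type I interferon acts on almost every nucleated cell through a receptor, JAK kinases and a complex of STAT factors with IRF9, which binds the interferon-stimulated response element (ISRE) in front of its targets. In stem cells it is known for driving them out of rest. Of 97 tested genes in 4 groups, 85 lay above WT (all genes: 48.6%), with a median log2 fold change of 0.30 (all genes: -0.0064). The groups did not overlap for 20 higher and 1 lower (all genes: 3.99% and 3.71%). At an unadjusted p under 0.05, 31 were higher and 0 lower (3.52% and 3.72%). None passed edgeR, and DESeq2 called 10 higher and 0 lower (0.344% each).

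The promoters of the listed genes were searched for the ISRE, which was found in part of them. The mouse RefSeq promoter table (GRCm38.p6, 250 bases before to 50 after each annotated start) held windows for 74 of the 97. The ISRE core was searched as GAAA, any 2 bases and GAAA again, and on the other strand as TTTC, any 2 bases and TTTC, and it was found for 40 of the 74 (54.1%), against 3.95% of the 9918 tested genes and 3.99% of the 27025 genes with a window. By role, it was found for 12 of 18 nucleic acid sensors (66.7%), 5 of 20 signalling genes, 14 of 26 antiviral effectors (53.8%) and 9 of 10 GTPases. A match is a description of these letters and not a measured binding site. The genes were listed for their part in the interferon response, so their share of matches says nothing on KO against WT. The 3 sequences below are the 150 bases before the start of the listed genes with the lowest p that have a match there, 5′ to 3′ on the gene's strand, with the matches in capitals; they stand at chr19:34640739-34640888 (plus strand, Ifit1), chr1:173913047-173913196 (minus strand, Ifi211) and chr5:120907526-120907675 (minus strand, Oas1a).
Ifit1: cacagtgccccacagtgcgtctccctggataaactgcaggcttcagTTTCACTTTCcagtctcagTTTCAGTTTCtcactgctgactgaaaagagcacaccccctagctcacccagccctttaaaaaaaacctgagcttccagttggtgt
Ifi211: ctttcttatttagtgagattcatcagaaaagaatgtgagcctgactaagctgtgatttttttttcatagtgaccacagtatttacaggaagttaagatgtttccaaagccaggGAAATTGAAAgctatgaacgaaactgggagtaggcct
Oas1a: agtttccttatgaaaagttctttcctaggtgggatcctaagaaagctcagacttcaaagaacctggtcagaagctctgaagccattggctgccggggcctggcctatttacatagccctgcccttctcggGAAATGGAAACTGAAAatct
Ifit1 carries 2 separate matches, which begin 104 and 85 bases before the start. Oas1a carries 2 that overlap, 20 and 14 bases before it, and Ifi211 has 1 at 37 bases.

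Among the nucleic acid sensors, 21 of 23 lay above WT (median 0.65), 7 without overlap, 12 at an unadjusted p under 0.05 and 3 passing DESeq2, all higher. Those without overlap were 30.4% of the list (all genes: 3.99%). Dhx58 led this group, as described above. Ifi211, a member of the PYHIN family of DNA sensors with close relatives beside it whose reads may be shared, lay at 1.66, 1.91, 2.13 and 1.10 CPM in WT and at 4.07, 4.36 and 4.85 in KO (log2 fold change 1.37, SE 0.31). The KO libraries were close to each other and all above WT. Oas1a and Oasl2, of the oligoadenylate synthetase family that detects double-stranded RNA, had log2 fold changes of 0.65 (SE 0.17) and 0.89 (SE 0.25), and in both KO replicate 2 lay below the highest WT library.

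Of the antiviral effectors, 33 of 34 lay above WT (median 0.45), 10 without overlap, 15 at an unadjusted p under 0.05 and 6 passing DESeq2, again all higher. Those without overlap were 29.4% of the list (all genes: 3.99%). Ifit1, which binds foreign RNA caps, had 3.44, 5.29, 6.83 and 7.54 CPM in WT and 39.1, 9.59 and 14.7 in KO (1.88, SE 0.42, edgeR adjusted p = 0.295). All KO libraries lay above WT, and KO replicate 1 was far above the others. Xaf1, a pro-apoptotic interferon target, had 11.99, 14.2, 21.2 and 12.4 CPM in WT and 28.4, 28.6 and 31.8 in KO (0.98, SE 0.22). Here the 3 KO libraries were close together. Phf11d (1.10, SE 0.26) and Slfn2, of the Schlafen family (1.30, SE 0.31), did not overlap either.

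The genes that transmit the signal differed less. Of 24 signalling and transcription genes, which include the receptor, kinases, STATs and IRFs, 19 lay above WT, but their median was 0.13, with 2 higher and 1 lower without overlap and 3 higher at an unadjusted p under 0.05. Those without overlap were 8.33% and 4.17% of the list (all genes: 3.99% and 3.71%). The largest differences belonged to genes that are themselves induced. Usp18, the protease that removes ISG15 and dampens the receptor, had 4.46, 8.33, 8.34 and 8.12 CPM in WT and 27.8, 9.38 and 19.2 in KO (1.36, SE 0.33, edgeR adjusted p = 0.308). Irf7, the factor that amplifies interferon transcription, had a log2 fold change of 0.90 (SE 0.27), and Isg15, the ubiquitin-like modifier, one of 1.34 (SE 0.43). The GTPases that defend against intracellular pathogens, mostly driven by interferon gamma, had 12 of 16 above WT (median 0.17), 1 without overlap (6.25%, all genes 3.99%) and 1 at an unadjusted p under 0.05. Gvin1 (0.61, SE 0.26) and Irgm1 (0.41, SE 0.19) had the lowest p among them.

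KO replicate 1 weighed on all 4 groups. The mean log2 CPM over the 97 genes was 4.33, 4.88, 4.46 and 4.82 in WT and 5.42, 4.86 and 5.09 in KO. KO replicate 1 was thus the highest, and KO replicate 2 lay within the WT range. By role, KO replicate 2 lay within the WT range for signalling and for the GTPases, and above every WT library for the sensors (4.31, WT up to 4.07) and the effectors (4.93, WT up to 4.79). Without KO replicate 1 the median of the 97 was 0.17, with 74 above WT; it was 0.43 for the sensors, 0.25 for the effectors, 0.049 for signalling and 0.003 for the GTPases. The log2 fold change was then 1.08 for Ifit1, 0.97 for Usp18 and 0.75 for Dhx58. KO replicate 1 was also the KO library with the highest Y-linked level. Against WT replicate 3 alone, without KO replicate 1, 76 of the 97 lay above WT (median 0.32), and the log2 fold change was 0.83 for Ifit1, 0.78 for Usp18 and 0.58 for Dhx58.

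**Figure D3:**
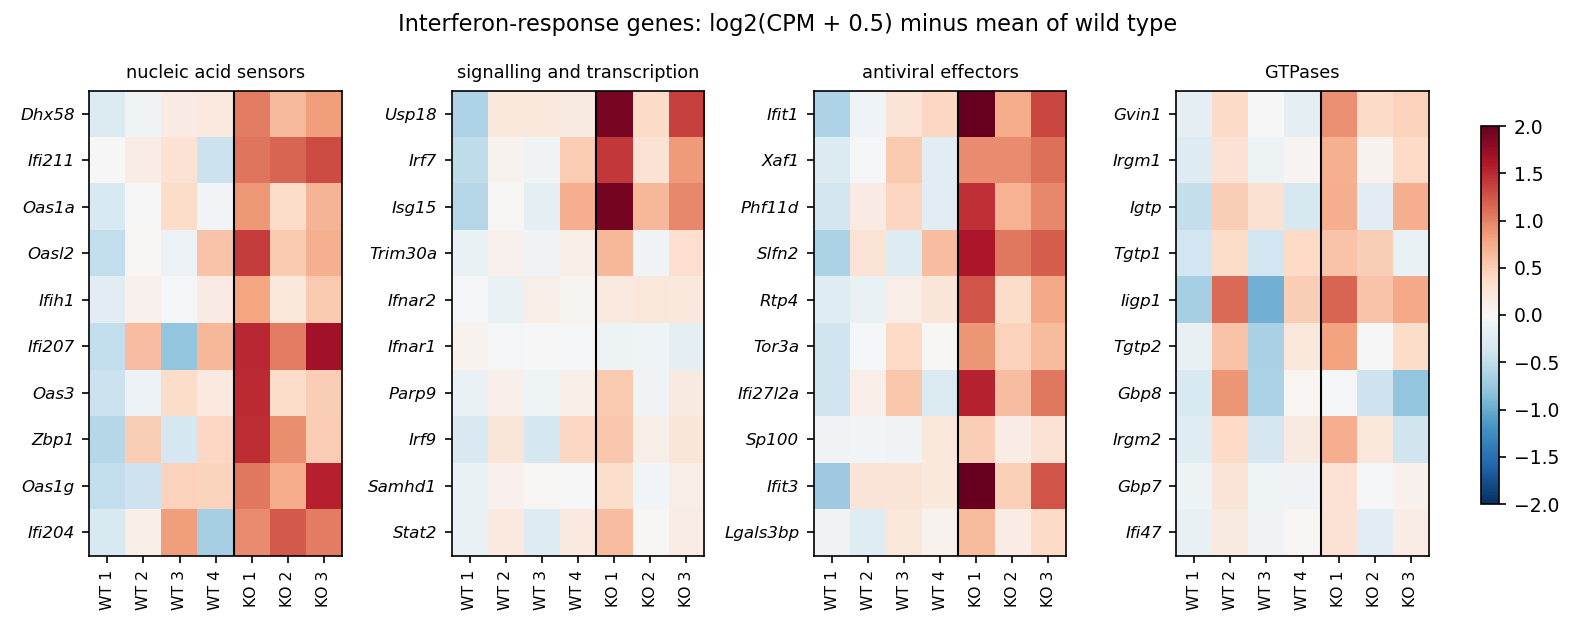
Colour gives log2(CPM + 0.5) minus the mean of the WT libraries, limited to 2 in either direction, for the 10 genes with the lowest p in each interferon group (rows) in the 7 libraries (columns, WT left of the line). KO replicate 1 is the darkest red for most signalling, effector and GTPase genes, and KO replicate 2 is the palest KO column for most of them.

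Genes of class I antigen presentation, many of them interferon targets, lay slightly above WT. Of 22, 20 were above (median 0.19, and 0.12 without WT replicate 1), 1 without overlap and 3 at an unadjusted p under 0.05, and none was called by DESeq2. The 1 without overlap was 4.55% of the list, near the 3.99% of all genes. B2m, the light chain of class I molecules, had a log2 fold change of 0.26 (SE 0.11) and Tapbp, the peptide-loading chaperone, one of 0.24 (SE 0.11; -0.019 against WT replicate 3 alone). WT replicate 1 had the lowest mean of this list (7.17 on the log2 CPM scale, against 7.42 to 7.62 in the other WT and 7.59 to 7.64 in the KO libraries).

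Early myeloid genes also lay above WT. Granulocyte-monocyte progenitor genes encode the primary granule proteins and cytokine receptors that appear when multipotent cells take the myeloid path. Of 27, 24 lay above WT (median 0.63), 12 without overlap and 0 lower, against 3.99% and 3.71% of all genes. At an unadjusted p under 0.05 there were 6 higher and 0 lower, and neither edgeR nor DESeq2 called any. Csf1r, through which M-CSF acts, had 18.6, 36.8, 41.8 and 52.2 CPM in WT and 89.6, 77.5 and 91.1 in KO (log2 fold change 1.21, SE 0.34, edgeR adjusted p = 0.457). Cst7, a cystatin of myeloid cells, had 22.9, 20.1, 33.8 and 35.6 CPM in WT and 54.1, 53.2 and 56.4 in KO (0.96, SE 0.28). In both, the KO libraries were close together and the WT libraries spread. Ly6c2, the monocyte surface protein Ly6C, ranged from 6.50 to 85.7 CPM within WT and from 115 to 154 in KO (1.99, SE 0.74), and Plac8 from 340 to 546 and from 589 to 683 (0.49, SE 0.21).

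Of 24 monocyte and dendritic cell genes, 23 lay above WT (median 0.52), 8 without overlap and 10 at an unadjusted p under 0.05, all higher, and DESeq2 called 4. Those without overlap were 33.3% of the list (all genes: 3.99%). Ms4a4c, of a membrane protein family of myeloid cells, had 0.446, 1.44, 0.941 and 2.16 CPM in WT and 7.24, 2.71 and 7.81 in KO (2.26, SE 0.50, edgeR adjusted p = 0.294). Cd14, the lipopolysaccharide co-receptor, had 0.669, 0.908, 1.22 and 2.69 CPM in WT and 5.11, 4.81 and 6.05 in KO (1.98, SE 0.47). Both genes reached the CPM limit only with their KO libraries. Every KO library exceeded every WT library for both, with WT replicate 4 the nearest. Ms4a6c (1.04, SE 0.25) was similar. Leaving out WT replicate 2 gave a median of 0.82, and leaving out WT replicate 3 one of 0.32. Against WT replicate 3 alone the median was 1.46, with 23 of 24 above WT; that of the granulocyte-monocyte progenitor list was 0.70, with 21 of 27 above.

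The libraries set these 2 lists in different orders. The mean log2 CPM of the granulocyte-monocyte progenitor list was 5.53, 5.84, 6.04 and 6.71 in WT and 6.73, 6.69 and 6.86 in KO, so that WT replicate 4 stood among the KO libraries and the groups overlapped. For the monocyte and dendritic cell list, it was 3.66, 4.53, 3.53 and 4.73 in WT and 4.91, 4.94 and 5.09 in KO, without overlap. Most mature neutrophil and tissue macrophage genes lay below WT. Only 10 of 16 mature neutrophil genes passed the CPM limit, 3 of those lay above WT (median -0.25; -0.01 without WT replicate 4), and none had an unadjusted p under 0.05. Their summed level was 70.1 to 178 CPM in WT and 81.4 to 132 in KO. Of 17 tissue macrophage genes, 4 lay above WT (median -0.28; 0.007 without KO replicate 1). Mertk, a receptor for dying cells, differed by -1.99 on the log2 scale (SE 0.78; 0.49 against WT replicate 3 alone) with overlapping groups, and Sdc3 by 0.79 (SE 0.32). Both lists turned against WT replicate 3 alone, with 8 of 10 neutrophil genes (median 1.83) and 15 of 17 macrophage genes (1.38) above WT.

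Stem cell genes lay below WT. Of 34 stem cell identity genes, which mark or maintain long-term stem cells, 30 were below (median -0.31), 7 without overlap and 12 at an unadjusted p under 0.05, all lower, while 0 were higher by either measure. Of all genes, 3.71% were lower without overlap and 3.72% lower at that p. DESeq2 called 1 and edgeR none. Sult1a1, a sulfotransferase enriched in stem cells, had 5.39, 8.42, 3.17 and 4.61 CPM in WT and 2.09, 1.41 and 1.56 in KO (log2 fold change -1.67, SE 0.43, edgeR adjusted p = 0.368). Neo1, the netrin receptor neogenin, had 5.10, 5.98, 5.11 and 6.48 CPM in WT and 3.31, 0.992 and 1.73 in KO (-1.48, SE 0.47). Procr, the endothelial protein C receptor by which stem cells are sorted, had 25.2, 15.5, 15.2 and 20.6 CPM in WT and 13.0, 11.7 and 9.40 in KO (-0.75, SE 0.26). None of these 3 overlapped between the groups. The list was nearly even against WT replicate 3 alone, with 16 of 34 above WT and a median of -0.064.

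Of 31 tested genes that rise in stem cells of old mice, 26 lay below WT (median -0.51), 8 without overlap, 8 at an unadjusted p under 0.05 and 3 passing DESeq2, all lower. Those without overlap were 25.8% of the list (all genes: 3.71%). The median was -0.71 without KO replicate 1, -0.33 without KO replicate 2 and -0.37 without WT replicate 2. It was -0.28 against WT replicate 3 alone, with 8 of 31 above WT. Gstm2, a glutathione S-transferase, was low in both groups, with 1.40, 1.82, 1.13 and 1.30 CPM in WT and 0.370, 0.241 and 0.233 in KO (-2.29, SE 0.55, edgeR adjusted p = 0.308). It passed the CPM limit only through its WT libraries. Dsg2, a desmosomal cadherin, had a log2 fold change of -1.67 (SE 0.41). Sult1a1 and Neo1 belong to this list too. The mean log2 CPM of the ageing list was 3.27, 3.498, 3.09 and 3.45 in WT and 2.98, 2.42 and 2.77 in KO, without overlap. That of the identity list was 5.54, 5.34, 4.98 and 5.34 in WT and 5.09, 4.79 and 4.92 in KO, and WT replicate 3 fell among the KO libraries. KO replicate 2 was the lowest library for both lists.

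Hox genes are expressed most highly in stem cells and fall as cells commit. Only 15 of 24 listed genes passed the CPM limit, of which 12 lay below WT (median -0.24), 3 without overlap and 4 at an unadjusted p under 0.05. Hoxb2 had 4.62, 2.88, 2.41 and 2.31 CPM in WT and 0.848, 0.722 and 1.30 in KO (-1.68, SE 0.36, edgeR adjusted p = 0.275). It reached the CPM limit only with its WT libraries. Pbx3, a partner of Hox proteins in the same list, went the other way, from 10.997 ± 2.42 to 16.6 ± 1.41 CPM (0.59, SE 0.20). The median of the list was -0.09 without WT replicate 1 and -0.085 without KO replicate 1. The list turned against WT replicate 3 alone, with 9 of 15 above WT and a median of 0.06.

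**Figure D4:**
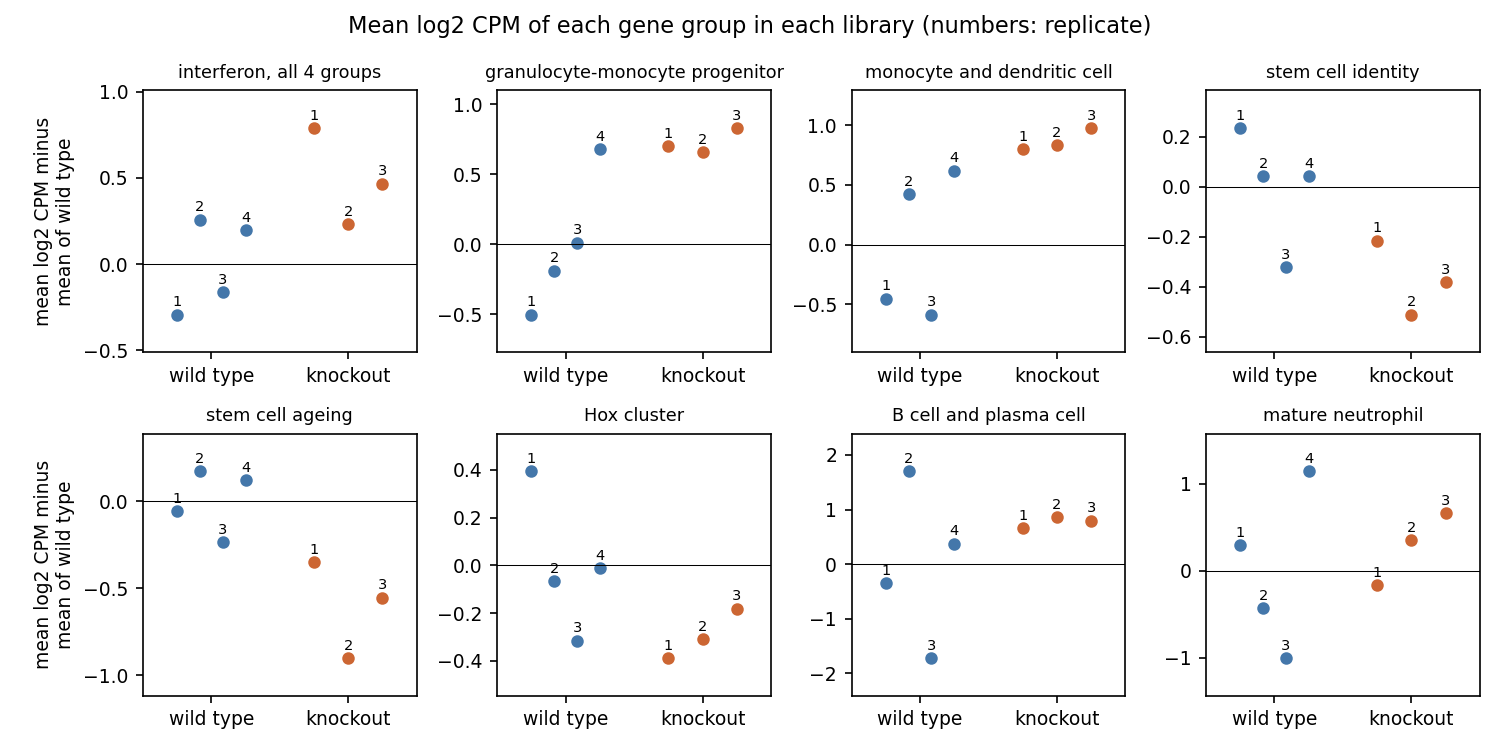
Each panel gives, for 1 gene group, the mean log2 CPM of its tested members in each library minus the mean of the 4 WT libraries (blue WT, orange KO, numbered by replicate). The monocyte and dendritic cell and stem cell ageing groups separate KO from WT, the other 6 overlap, and the B cell group spreads most widely within WT.

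Markers of other lineages had medians between -0.19 and 0.20, and several depended on single libraries. Lymphoid priming genes, which open the lymphoid path in multipotent cells, had 14 of 27 above WT, a median of 0.001 and none without overlap or at an unadjusted p under 0.05. B cell and plasma cell genes had 13 of 22 above WT (median 0.09), but leaving out WT replicate 2 moved the median to 1.08 and leaving out WT replicate 3 moved it to -0.17. Their summed level ran from 616 to 7980 CPM in WT and from 2315 to 9143 in KO. Of 16 tested T and NK cell genes out of 28 listed, 9 lay above WT (median 0.17), with 2 higher and 2 lower without overlap and 3 higher and 1 lower at an unadjusted p under 0.05. Those without overlap were 12.5% of the list in each direction (all genes: 3.99% higher and 3.71% lower). At that p, 3.52% of all genes were higher and 3.72% lower. Gzmb, granzyme B, had 1.88, 3.04, 1.29 and 1.44 CPM in WT and 3.65, 4.57 and 7.58 in KO (1.45, SE 0.36) and passed DESeq2. Il2rb, a subunit of the interleukin 2 receptor, had a log2 fold change of 1.31 (SE 0.50) and the adaptor Lat one of -0.42 (SE 0.15). The cell source of these reads was not tested. The summed level of the list was 169 to 188 CPM in WT and 163 to 190 in KO. Megakaryocyte genes had 13 of 17 below WT (median -0.19; -0.02 without KO replicate 2), with Gp9, a platelet glycoprotein, at -0.51 (SE 0.20). Erythroid genes had 14 of 18 below (median -0.19; 0.10 without WT replicate 2) and none at an unadjusted p under 0.05. In the mast cell and basophil list, 8 of 11 lay above WT (median 0.20; 0.58 without WT replicate 4), 2 of them without overlap (18.2%, all genes 3.99%). Gzmb belongs to this list too. Fcer1g, the signalling chain of the IgE receptor that myeloid cells also use, lay at 17.9 ± 4.03 CPM in WT and 30.3 ± 4.70 in KO (0.76, SE 0.21). Against WT replicate 3 alone the medians were higher for several of these lists: 0.64 for lymphoid priming, 2.77 for B cell and plasma cell, 0.92 for T and NK cell, 0.85 for erythroid and 0.74 for mast cell genes.

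Ribosomal and mitochondrial genes lay above WT by small amounts. Of 79 cytoplasmic ribosomal protein genes, 69 lay above WT, with a median of 0.10, 9 without overlap and 8 at an unadjusted p under 0.05, all higher. Those without overlap were 11.4% of the list (all genes: 3.99%). Rplp0, of the ribosomal stalk, lay at 1529 ± 232 CPM in WT and 2020 ± 115 in KO (0.40, SE 0.13), and Rps14 at 906 ± 44.05 and 1107 ± 85.2 (0.29, SE 0.098). Pseudogenes of these families could take part of the reads. Without WT replicate 2, which had the lowest summed level of the 7, the median was 0.04. Of 75 nuclear genes of oxidative phosphorylation, 64 lay above WT (median 0.14, and 0.24 without WT replicate 3), with 2 without overlap and 5 at an unadjusted p under 0.05. The 2 without overlap were 2.67% of the list, below the 3.99% of all genes. Against WT replicate 3 alone this list turned, with 26 of 75 above WT (median -0.056), while the ribosomal protein genes did not (71 of 79 above, 0.13). Ndufa7, of complex I, and Cox6a1, of complex IV, each had a log2 fold change of 0.32 (SE 0.10 and 0.13). Ribosome biogenesis genes, of interest because PHF6 has been placed at ribosomal DNA, had 28 of 40 above WT, a median of 0.03 and none at an unadjusted p under 0.05. The median of this list was -0.031 without WT replicate 2 (17 of 40 above) and -0.019 without KO replicate 3 (18 of 40). Against WT replicate 3 alone it was -0.071, with 11 of 40 above WT.

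Cell cycle, stress and signalling groups had small medians. G2 and M phase genes had 35 of 52 above WT (median 0.04) and S phase genes 34 of 46 (0.04), with 1 gene each at an unadjusted p under 0.05; against WT replicate 3 alone, 18 and 10 of them lay above. Immediate early genes (21, median 0.08) and TNF and NF-kB targets (31, median 0.03) were highest in WT replicate 4. Without that library their medians were 0.54 and 0.15, and without WT replicate 1 that of the immediate early genes was -0.047. Among the TNF and NF-kB targets only the chemokine Ccl4 had an unadjusted p under 0.05 (0.87, SE 0.27, with overlapping groups). Among feedback inhibitors of cytokine receptors, Socs3 lay at 26.6, 22.7, 38.9 and 42.8 CPM in WT and at 24.7, 14.1 and 14.7 in KO (-0.87, SE 0.26), while the list of 20 had a median of -0.002. Of 25 p53 targets, 12 lay above and 13 below WT. Zmat3, an RNA-binding protein (-0.64, SE 0.18), and Perp, a tetraspan membrane protein (-1.35, SE 0.38), lay lower without overlap. Members above WT numbered 12 of 22 for the Notch pathway (median 0.03), 15 of 22 for glycolysis (0.07), 8 of 12 for class II antigen presentation (0.10; 0.52 without WT replicate 2 and -0.14 without WT replicate 3) and 11 of 18 for cyclin-dependent kinase inhibitors and G1 cyclins (0.05). They numbered 5 of 10 for stromal and endothelial markers (-0.009), 19 of 28 for chemokine and growth factor receptors (0.17) and 17 of 24 for glutathione S-transferases and metallothioneins (0.09). The last 2 lists each had 3 members higher and 2 lower without overlap (all genes: 3.99% and 3.71%). These were 10.7% and 7.14% of the receptor list and 12.5% and 8.33% of the glutathione and metallothionein list. Against WT replicate 3 alone, 18 of 21 immediate early genes (median 0.93) and 12 of 12 class II genes (0.95) lay above WT. By contrast, 6 of 22 glycolysis genes (-0.099) and 8 of 18 kinase inhibitor and cyclin genes (-0.070) did.

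Genes of the chromatin machinery around PHF6 had medians near that of all genes. Of 25 tested PHF6 partners and NuRD subunits, Phf6 included, 14 lay above WT (median 0.007), and besides Phf6 only Gatad2b, a NuRD scaffold subunit, had an unadjusted p under 0.05 (244 ± 9.53 CPM in WT, 221 ± 2.51 in KO, -0.14, SE 0.062). Polycomb genes, which keep developmental genes silent, had 14 of 32 above WT (median -0.02), with the chromodomain protein Cbx7 at -0.60 (SE 0.26) and overlapping groups (0.14 against WT replicate 3 alone). Of the 32, 3 lay higher and 1 lower without overlap (9.4% and 3.1%, all genes 3.99% and 3.71%). Chromatin regulators mutated in myeloid leukaemia had 20 of 26 below WT by small amounts (median -0.04), 2 of them without overlap (7.69%, all genes 3.71%). Only Nf1, the brake on RAS that the list also holds, had an unadjusted p under 0.05 (-0.23, SE 0.095). Against WT replicate 3 alone, 7 of 25 partners and NuRD subunits, 18 of 32 Polycomb genes and 11 of 26 regulators lay above WT.

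The relatives of Celsr1 and Chl1 lay on both sides of WT. Of 22 planar cell polarity genes, 11 lay above and 11 below WT (median -0.001). Celsr2, the closest listed relative of Celsr1, was the other member at an unadjusted p under 0.05, with 7.97, 9.68, 9.50 and 6.77 CPM in WT and 6.18, 5.62 and 5.58 in KO (-0.55, SE 0.19, edgeR adjusted p = 0.578). Of 23 neural adhesion and guidance genes, 8 passed the CPM limit, Chl1 among them and only through its KO libraries. Of the other 7, 4 lay above WT, 3 without overlap, with 3 higher and 2 lower at an unadjusted p under 0.05. Of all genes, 3.99% were higher without overlap, and 3.52% were higher and 3.72% lower at that p. Nrp1, a receptor for semaphorins and VEGF, had 10.01, 16.2, 14.3 and 14.1 CPM in WT and 22.2, 27.5 and 24.2 in KO (0.85, SE 0.20, edgeR adjusted p = 0.308). Every KO library exceeded every WT library by a clear gap. L1cam, from the same family as Chl1, lay at 0.983 ± 0.177 CPM in WT and 2.00 ± 0.760 in KO (1.02, SE 0.37), and Nrp2 at 2.19 ± 0.480 and 3.46 ± 0.743 (0.66, SE 0.25).

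**Figure D5:**
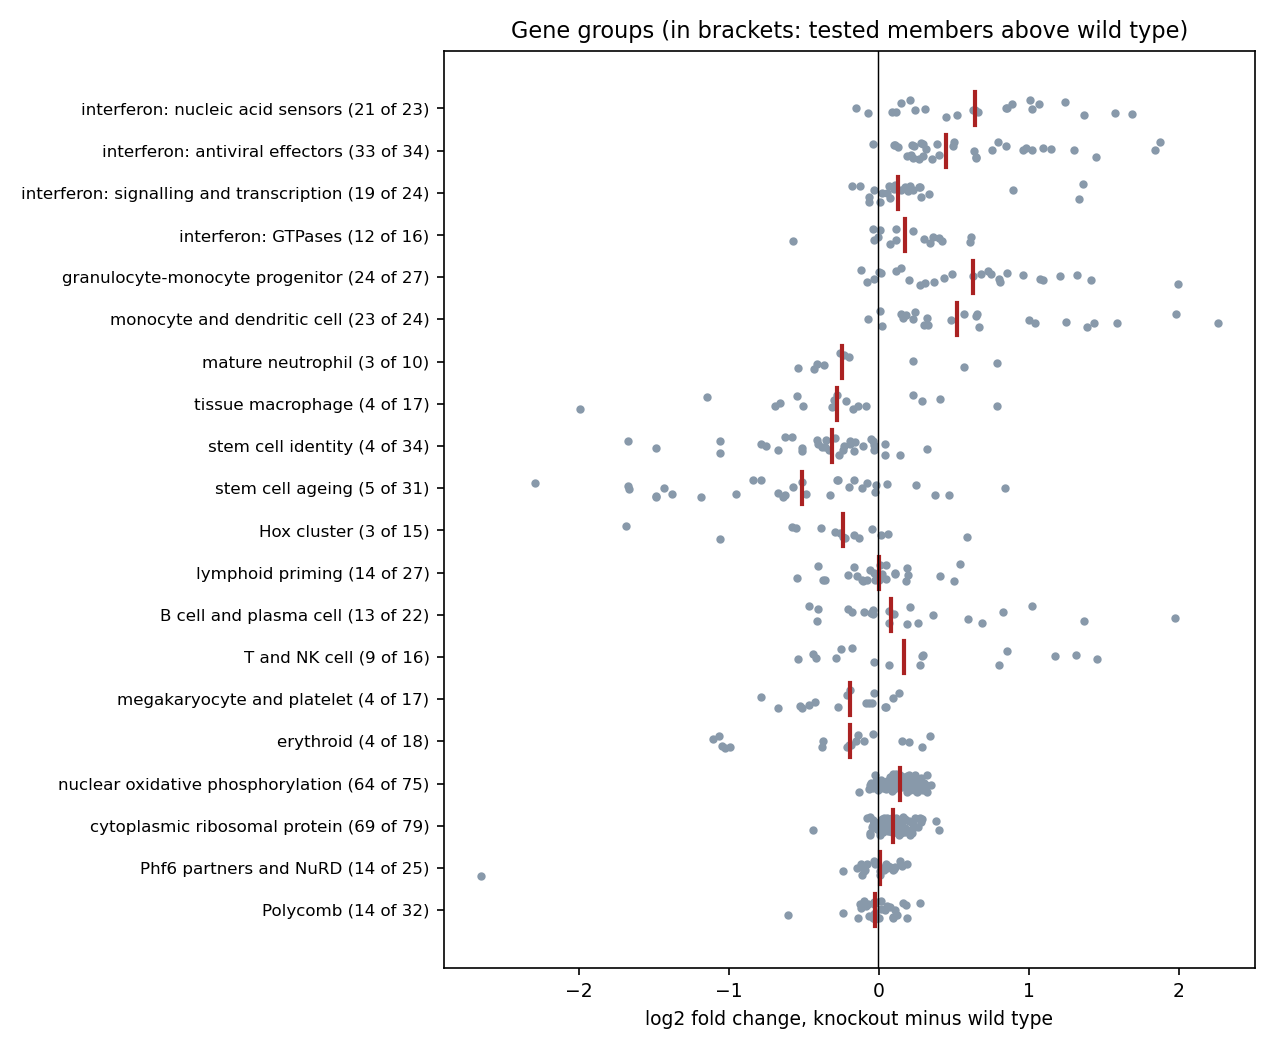
Each grey point is the fitted log2 fold change of 1 tested gene, the red bar is the median of its group, the black line is the median of all genes, and brackets give how many members lie above WT. Interferon, granulocyte-monocyte progenitor and monocyte and dendritic cell groups lie to the right. Stem cell, ageing and Hox groups lie to the left, and the chromatin groups are centred on the line with Phf6 itself far to the left.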

How the data were processed

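RNA of LSK cells was measured in 11 libraries (4 WT, 3 KO, 4 Tg), of which 7 are compared. The deposited values are raw counts of reads for each gene symbol. Per the submitters' processing notes, the authors used Trimmomatic, STAR, HTSeq, FastQC and build mm10; for versions, annotation, strand setting and filters the sources used here give nothing. Coordinates come from GENCODE M21 (GRCm38), matched by symbol.

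All 11 libraries were fitted with edgeR 4.0.16 (R 4.3.3; TMM factors, group-only design) on genes with at least 1 CPM in 3 or more of the 7 libraries, and tested by quasi-likelihood with Benjamini-Hochberg adjustment over 13973 genes. CPM values are TMM-scaled, except those of Xist, Ddx3y and genes under the limit, which use library totals. Genes varied between libraries of a group by a common coefficient of 0.241. The p-values measure the spread between these libraries. Members and lists were chosen with earlier results of these data known, so no list carries a test. Named genes are Phf6, the called genes, the 15 with the lowest p in each direction (mean of at least 5 CPM, no overlap, no predicted model or immunoglobulin segment) and up to 4 per list; some genes that this rule names are not reported here. Mnda was matched to Ifi211 by synonym. Alternatives were DESeq2 1.42.0, limma-voom 3.58.1, sva 3.50.0, other scalings and filters, a fit of the 7 libraries, the replicate number as a block, the Y-linked level as a covariate, robust estimation, autosomal protein-coding genes and each library left out. A fit without the 4 libraries that hold Xist and Y-linked reads was chosen after seeing the data. The fit was tested on simulated data. Figures used matplotlib 3.10.9.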

Additional observations from a re-analysis of the deposited data

Results flagged for a closer look

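In the 4 WT libraries, 1 sample stood apart from the others by Dixon's test at the 95% level for 4 of 122 values examined, where chance gives about 1 in 20; groups of 3 were not examined. Mtln was high in WT replicate 3 (6.77 CPM, against 5.28 to 5.36), below every KO library. Usp18 was low in WT replicate 1 (4.46 CPM, against 8.12 to 8.34), and KO replicate 2, at 9.38, lay near the other 3 WT libraries. Lat was high in WT replicate 2 (29.5 CPM, against 22.2 to 23.004). The mean of the list of SOCS and JAK-STAT feedback genes reached a log2 CPM of 5.58 in WT replicate 4, against 5.45 to 5.47.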

How the results depend on the processing

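Phf6 was called in all 26 alternatives that tested it (log2 fold change -2.83 to -2.51, adjusted p up to 0.033). The number of called genes was 4, and 96 by DESeq2. It was 1 in the fit of the 7 libraries alone, with the replicate block and with a surrogate variable, and 2 with the Y-linked level as a covariate. With each library left out it ran from 1 to 8; the 8 came without KO replicate 1 and included all 4, while the 1 left without WT replicate 3, KO replicate 2 or KO replicate 3 was Phf6. The block in the fit of the 7 libraries gave 4, of which 1 was shared and 3 were immunoglobulin genes. Replicate numbers did not pair the samples: deviations of same-numbered KO and WT libraries correlated at -0.046, 0.144 and 0.026, and 1 of the 3 KO libraries correlated best with its own number. No named gene changed direction past the threshold. The fit without the 4 libraries that hold Xist and Y-linked reads was chosen after seeing the data. It leaves WT replicate 3, which is assumed to vary like the other groups, and called 6 genes, of which 1 (Phf6) was shared and 2 were immunoglobulin genes. Tapbp (-0.019), Mertk (0.49) and Cbx7 (0.14), none of them called, changed sign in it. Genes at the CPM limit rest on few reads, and 3 KO libraries limit every comparison.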

Other observations

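Mid1, a ubiquitin ligase gene, was chosen after its values were seen. It lay at 13.8, 6.98, 8.34 and 3.89 CPM in WT and at 5.48, 119 and 68.9 in KO. KO replicates 2 and 3 were far above the WT libraries, and KO replicate 1, the KO library with the highest Y-linked level, lay within them. WT replicate 3, the WT library with the lowest Y-linked level, lay at 8.34 CPM. Against that library alone, without KO replicate 1, the log2 fold change was 3.49. The source of the split between the KO libraries was not tested. The fitted log2 fold change was 2.95 (SE 0.72, edgeR adjusted p = 0.308), and the gene was called by edgeR when KO replicate 1 was left out and by DESeq2 on all libraries (adjusted p = 0.0259).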
